A study of Saccharomyces cerevisiae with 14 samples.

Results

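The small subunit of the cytosolic ribosome was followed through its protein genes, which in Saccharomyces cerevisiae carry standard names beginning with RPS. Members were every gene whose name in the probe annotation was RPS, a number and, where present, A or B. Each was read by its brightest probe set assigned to that gene alone, where a probe set is the group of short probes that reads a transcript. This gave 52 genes out of 5449 S. cerevisiae genes with such a probe set. They comprised 7 genes with no paralogue in the naming (RPS2, RPS3, RPS12, RPS13, RPS15, RPS20 and RPS31), 3 genes present through one paralogue only (RPS4B, RPS6B and RPS30A) and the A and B genes of 21 pairs. The R64 gene table holds 56 RPS names, of which 4, RPS4A, RPS6A and RPS30B among them, were not analysed here. All 52 members were above the background signal on every array.

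The yeast was CB11, a lager strain used for brewing, taken from a production-scale wort fermentation in one cylindroconical vessel. The yeast had already served in earlier fermentations, and the wort was oxygenated as the vessel filled. Samples came at 8, 30, 60, 80 and 102 h after pitching, which is the addition of yeast to wort. There were 2 arrays at 30 h and 3 at every other time, so 14 arrays in all, each hybridised with biotin-labelled RNA on a single-colour Affymetrix yeast array. Every sample shared the strain, the wort and the vessel, no sample was untreated, and time was the only factor. Because the samples of a time came from one fermentation, p-values below measure only the spread between those samples. Lager yeasts are hybrids of S. cerevisiae and a cold-tolerant relative, and the array carries S. cerevisiae probes. How far transcripts of the other parent added to each signal was not tested. RNA was pooled over many cells, so fewer cells of a kind and less RNA per cell cannot be told apart.

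Ribosomes are among the costliest products of a growing yeast cell, and genes for their proteins are usually transcribed together. In yeast the factors Rap1, Fhl1, Ifh1 and Sfp1 act at most of their promoters, and the TOR and protein kinase A pathways relay nutrient supply to them. The small subunit binds the mRNA and reads its codons, with a head, a body and a platform built of rRNA and the RPS proteins. A genome duplication left most of these proteins encoded by an A and a B gene, with identical or nearly identical products.

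Signals below are intensities in arbitrary units after quantile normalisation. The array medians of the deposited signal ran between 22.6 and 38.7. The S. cerevisiae probe sets had a median deposited signal between 261 and 405 on each array, against 2.98 to 7.00 for probe sets assigned to another organism. On 3 arrays the probe sets at the 5′ ends of 6 control transcripts were dim relative to those at the 3′ ends. The mean log2 ratio of 5′ to 3′ signal was -3.30 on 8 h replicate 1, -4.08 on 60 h replicate 1 and -1.66 on 60 h replicate 2, and lay between -0.736 and -0.364 on the other 11 arrays. On 60 h replicate 1, 4 members, RPS0B, RPS14B and RPS7B among them, were over 0.5 lower on the log2 scale than the mean of the other 60 h arrays, and 20 members were over 0.5 higher. On 8 h replicate 1, 4 members, RPS0B, RPS14B and RPS14A among them, were over 0.5 lower than the other 8 h arrays. The part of these arrays in a result was not tested, so results that rest on them are given with and without them. Between the 30 h arrays, replicate 2 was the brighter for 51 of 52 members, with a median log2 difference of 0.44 and a largest of 1.12.

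Most small-subunit transcripts changed over the fermentation. The larger part were highest at 8 h, lowest at 60 h and partly restored by 80 and 102 h. The moderated F-test of limma, which asks for any change over the 5 times, passed at an adjusted p under 0.05 for 48 of 52 members, or 92.3%, where 68.5% of all 5336 probe sets tested did. The members that did not pass were RPS18A (adjusted p = 0.0531), RPS27B (0.0568), RPS28A (0.113) and RPS30A (0.383). These also passed without the 3 arrays of dim 5′ signal, which left only replicate 3 at 60 h. The share of all probe sets that passed is not given for that setting. The mean signal was lowest at 60 h for 47 members. The exceptions were RPS15 and RPS29B (lowest at 80 h), RPS27B and RPS30A (30 h) and RPS29A (102 h). It was highest at 8 h for 47 members, the exceptions being RPS14A, RPS14B, RPS27B and RPS28B (102 h) and RPS30A (80 h). The ratio of a member's highest to its lowest time mean had a median of 2.31 and ran between 1.25 for RPS30A and 6.23 for RPS26B.

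**Figure D1:**
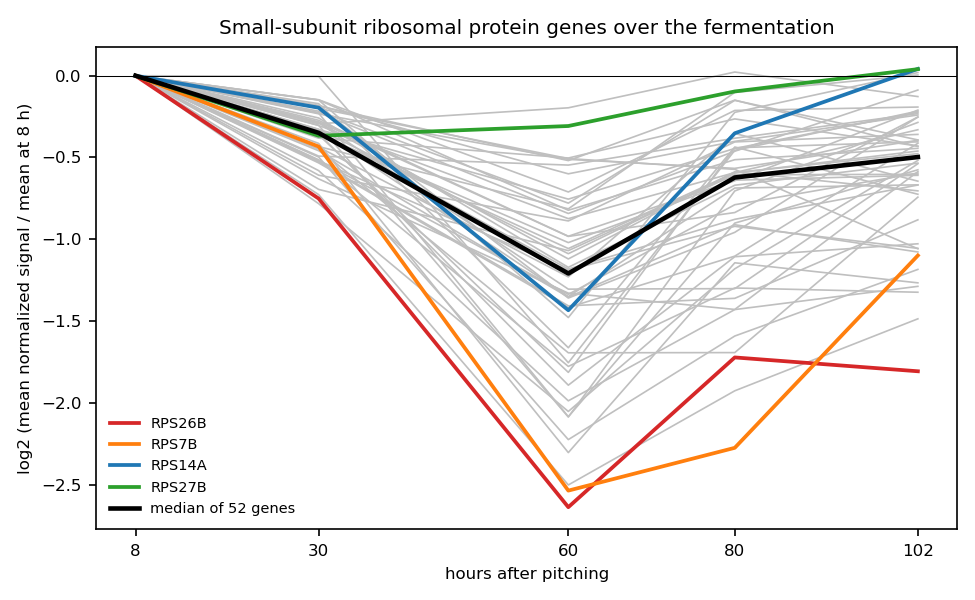
Log2 of the mean normalized signal at each time over the mean at 8 h (vertical axis) against hours after pitching, for each of 52 genes in grey, 4 named genes in colour and the median of the 52 in black. Most lines reach their lowest point at 60 h, the mean of RPS14A at 102 h is near its 8 h mean, which includes an array of dim 5′ signal, and RPS26B stays far below.

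Genes at both ends of that range show how much the members differed. RPS26B encodes a protein of the mRNA exit channel. Its signals were 1914, 1409.9 and 1418 at 8 h, 662 and 1217 at 30 h, 348, 233 and 181 at 60 h, 507, 486 and 444 at 80 h and 481, 432 and 442 at 102 h. The 60, 80 and 102 h arrays all lay below every 8 h and 30 h array. RPS30A encodes a small protein of the body that in many animals is made as a fusion with a ubiquitin-like protein. Its signals were 8316, 6396 and 6293 at 8 h, 5026 and 6396 at 30 h, 7959.9, 5346 and 5026 at 60 h, 6891, 7271 and 7171 at 80 h and 6194, 6225 and 6809 at 102 h. Among neighbouring times the arrays of RPS30A overlapped or tied except at 102 h and 80 h, and the gene was read by a probe set marked as shared between transcripts. At 80 h and 60 h the overlap came from 60 h replicate 1 alone, the array with the dimmest 5′ controls. The other 60 h arrays lay below every 80 h array.

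At 30 h against 8 h no member passed the test of limma in either direction, where 0.112% of all probe sets passed as higher and 0.131% as lower. At an unadjusted p under 0.05 there were 21 members, and 51 of 52 members had a log2 change at or below 0. The median change of the members was -0.36, against -0.04 over all probe sets. The largest change was that of RPS9A, which encodes a protein beside the mRNA entry channel, with 378 and 664 at 30 h against 828, 921 and 940.0 at 8 h. Its log2 change was -0.84 ± 0.21 (SE) with an adjusted p of 0.0849, or 0.0287 without the 3 arrays of dim 5′ signal, and the groups did not overlap. RPS26B came next at -0.80 ± 0.27 (adjusted p = 0.183). More members passed as lower without the 3 arrays of dim 5′ signal and without 30 h replicate 2. So did more of all probe sets. These settings left only replicate 3 at 60 h and only replicate 1 at 30 h, in that order. The median change was 0.00 once arrays were centred on the S. cerevisiae median.

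Between 30 h and 60 h most small-subunit transcripts fell. Of 52 members 39, or 75.0%, passed as lower at 60 h and none as higher, where 11.8% of all probe sets passed as lower and 16.2% as higher. At an unadjusted p under 0.05 there were 43 members in either direction. The median log2 change was -0.83, against 0.05 over all probe sets. The 13 that did not pass included RPS3, RPS18A, RPS21A, RPS23A, RPS25B, RPS27A, RPS27B, RPS28A, RPS28B, RPS29A, RPS29B and RPS30A.

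The largest fall was in RPS7B, whose protein is needed for maturation of small-subunit rRNA. It had 246, 376 and 386 at 60 h against 909 and 1979 at 30 h, a log2 change of -2.03 ± 0.28 (SE, limma adjusted p = 0.000282). Its paralogue RPS7A had 970.5, 1045 and 1069 at 60 h against 3282 and 4162 at 30 h, a change of -1.85 ± 0.14 (adjusted p = 1.17e-05). In both genes every 60 h array lay well below both 30 h arrays. RPS26B fell by 1.87 ± 0.27 on the log2 scale (adjusted p = 0.000402), and its change without the 3 arrays of dim 5′ signal was -2.29. RPS1A, whose protein lies on the platform near the mRNA exit, had 414, 378 and 448 at 60 h against 1069 and 1996 at 30 h, a change of -1.83 ± 0.23 (adjusted p = 0.000139). The 60 h values of RPS1A kept close together, while its 30 h values differed widely.

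RPS0B also belonged to the largest falls, and it rests in part on the array with the dimmest 5′ controls. RPS0B, whose protein is related to the laminin receptor of mammals and is needed for maturation of small-subunit rRNA, had 243, 817 and 768 at 60 h against 1583 and 2614 at 30 h. The log2 change was -1.93 ± 0.47 (SE, limma adjusted p = 0.00844), and replicate 1 of 60 h was by far the lowest array. Without the 3 arrays of dim 5′ signal the change was -1.42 (adjusted p = 0.000425). RPS0B did not pass without 30 h replicate 2, which left only replicate 1 at 30 h. Fewer members then passed as lower, and fewer of all probe sets.

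Between 60 h and 80 h part of the members rose. Of 52 members 25, or 48.1%, passed as higher at 80 h and none as lower, where 9.43% of all probe sets passed as higher and 10.9% as lower. At an unadjusted p under 0.05 there were 36 members in either direction. The median log2 change was 0.50, against -0.04 over all probe sets. RPS24B had 3489, 3779.5 and 3582 at 80 h against 1199, 1563 and 1426 at 60 h, a change of 1.38 ± 0.16 (SE, limma adjusted p = 0.000174). RPS1B had 3219, 3345 and 2683 at 80 h against 1404, 1019 and 1527 at 60 h, a change of 1.24 ± 0.16 (adjusted p = 0.00044). The 80 h and 60 h arrays of both were far apart. RPS7A rose by 1.18 ± 0.12 (adjusted p = 9.82e-05), with 2646, 2292 and 2069 at 80 h.

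RPS14B also rose. Its protein sits on the platform and, when in excess, represses splicing of the RPS14B transcript itself. It had 537, 444 and 323 at 80 h against 119, 207 and 221 at 60 h, a log2 change of 1.28 ± 0.29 (SE, limma adjusted p = 0.00904), and 0.93 without the 3 arrays of dim 5′ signal. RPS0B rose by 1.57 ± 0.42 (adjusted p = 0.0191). Without those arrays, which left only replicate 3 at 60 h, its change was 1.06. More members then passed as higher, and more of all probe sets. Members passing as higher numbered 13 with arrays centred on the S. cerevisiae median and 13 without 80 h replicate 1 or replicate 2. RPS0B did not pass without either of these replicates. Over all probe sets the counts passing as higher were 465, 268 and 234 in the same order.

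In the last interval, 102 h against 80 h, 9 members (17.3%) passed as higher and none as lower, where 7.59% of all probe sets passed as higher and 8.36% as lower. At an unadjusted p under 0.05 there were 14 members in either direction. The median log2 change was 0.14, against -0.04 over all probe sets. The largest rise was that of RPS7B, also the gene with the largest fall at 60 h, with 868, 922 and 940.0 at 102 h against 435, 403 and 371 at 80 h and a change of 1.18 ± 0.25 (SE, limma adjusted p = 0.00861). The arrays of 80 h and 60 h overlapped in RPS7B, and those of 102 h lay above all arrays of 80 h.

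RPS15 encodes a head protein needed for export of the small subunit from the nucleus. It had 4534, 4384 and 4689 at 102 h against 2555, 2534 and 2498 at 80 h, and a log2 change of 0.84 ± 0.13 (SE, limma adjusted p = 0.00172). RPS4B had 6923, 6759 and 7034 at 102 h against 4175, 4282 and 4254 at 80 h and 0.70 ± 0.13 (adjusted p = 0.00442). RPS9A rose by 0.67 ± 0.18 (adjusted p = 0.0274), a call lost on the deposited scale (adjusted p = 0.287) and without any one of the 102 h arrays. Others that passed were RPS26A, RPS16B and RPS13. On the deposited scale, where the median of all probe sets itself moved by -0.31, 5 members passed as higher and 2 as lower. Of all probe sets 122 passed as higher and 1423 as lower on that scale.

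From the first sample to the last, 32 of 52 members (61.5%) passed as lower at 102 h than at 8 h and none as higher, where 28.6% of all probe sets passed as lower and 21.6% as higher. At an unadjusted p under 0.05 there were 34 members in either direction. The median log2 change was -0.50, against -0.09 over all probe sets. RPS26B had 481, 432 and 442 at 102 h against 1914, 1409.9 and 1418 at 8 h, a change of -1.79 ± 0.24 (SE, limma adjusted p = 6.98e-05). RPS22A, whose protein lies in the body, had 1134, 1252 and 1287 at 102 h against 4292, 2990.0 and 3010.4 at 8 h and -1.47 ± 0.28 (adjusted p = 0.000861). RPS19A, a head protein whose human counterpart is mutated in Diamond-Blackfan anaemia, had 1178, 1168 and 1165 at 102 h against 3099, 2640.0 and 3053 at 8 h and -1.32 ± 0.18 (adjusted p = 6.69e-05). Every 102 h array of these 3 genes was below every 8 h array by a wide margin.

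RPS0A had 908, 928 and 956 at 102 h against 2531, 2185 and 2104 at 8 h, and a log2 change of -1.28 ± 0.18 (SE, limma adjusted p = 8.20e-05). RPS1A had 685, 895 and 965 at 102 h against 1761, 2164 and 2202 at 8 h, and a change of -1.27 ± 0.20 (adjusted p = 0.000218). From 60 h on, every array of both genes lay below every 8 h array. The other end of the range held RPS14A, with 6759, 6324 and 6537 at 102 h against 4638, 7390.4 and 7034 at 8 h, and RPS27B, with 7712, 7761 and 7652 against 8008, 7034 and 7448. The log2 changes were 0.07 ± 0.18 and 0.04 ± 0.14, neither of them past the test, and both genes overlapped between the times. The overlap of RPS27B came from 8 h replicate 1 alone, and its 102 h arrays all lay above the other 8 h arrays. For RPS14A the overlap came from 8 h replicate 1 alone, an array of dim 5′ signal, and without the 3 such arrays its change was -0.14 (adjusted p = 0.283). RPS29A, a zinc-binding head protein, was the only member lowest at 102 h, with 2025, 2033 and 1964 at 102 h, 2839, 2839 and 2755 at 80 h and 4849, 4002 and 3692 at 8 h. With arrays centred on the S. cerevisiae median the count of members passing as lower was 18. Of all probe sets 1386 passed as lower with that centring, against 1524 after quantile normalisation. Without the 3 arrays of dim 5′ signal the counts of members and of all probe sets were both larger.

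**Figure D2:**
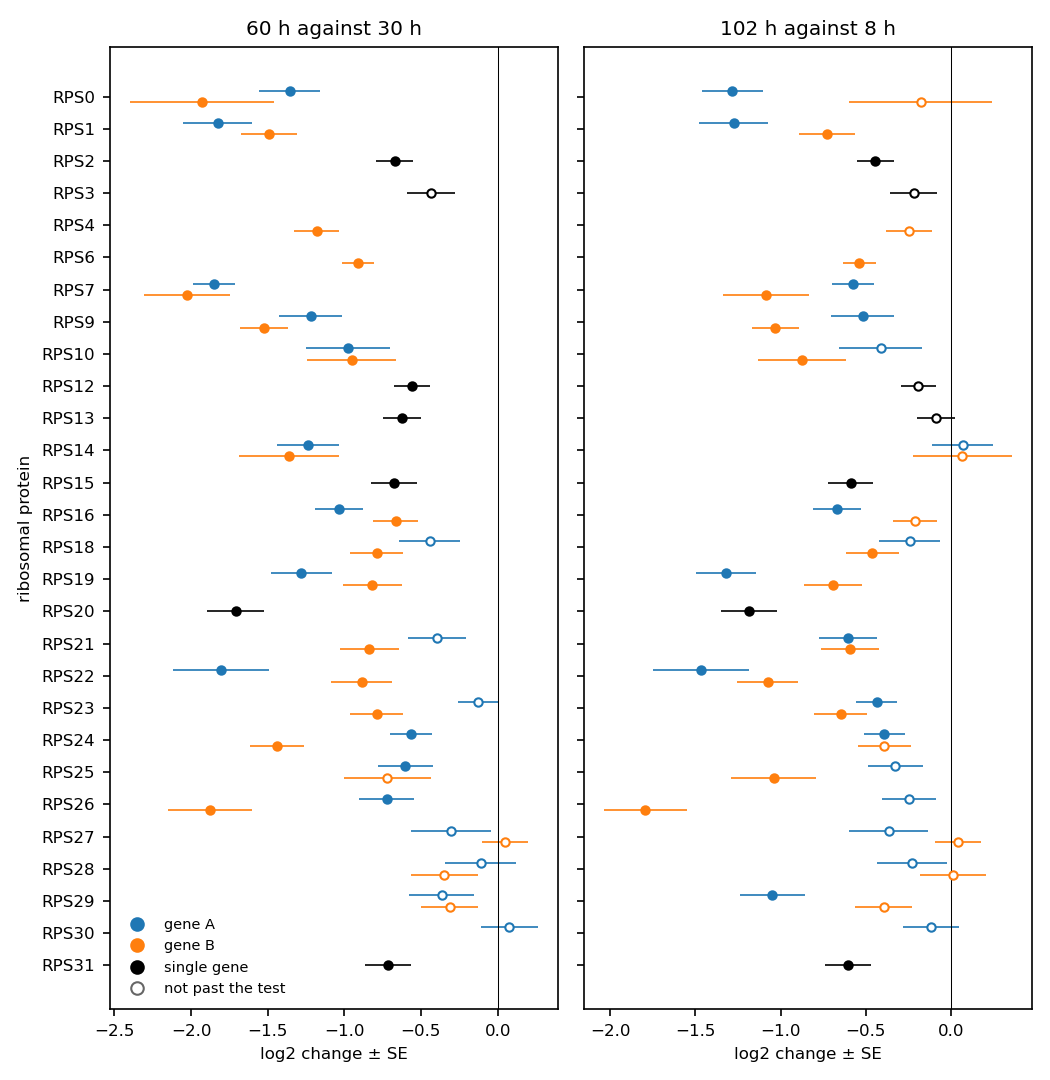
Log2 change with its standard error for the genes of small-subunit proteins, the few not reported here left out, at 60 h against 30 h on the left and at 102 h against 8 h on the right, with gene A in blue, gene B in orange and single genes in black. Filled circles passed the test. Nearly all points lie left of 0 at 60 h, and at 102 h RPS26B stands farthest left while RPS14A and RPS14B lie near 0.

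The large subunit, read in the same way from 76 RPL and RPP genes, also fell. It had 58 members lower at 60 h than at 30 h (76.3%), with a median log2 change of -1.06, where 11.8% of all probe sets passed as lower. At 102 h against 8 h 60 were lower (78.9%), with a median of -0.71, where 28.6% of all probe sets passed as lower. Whether the subunits differed in their shares was not tested.

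The 7 genes without a paralogue all passed the F-test. RPS20, a head protein, moved most. Its signals were 8574, 9038 and 8904 at 8 h, 4871 and 7652 at 30 h, 2324, 1699 and 1647 at 60 h, 3186, 3037 and 2573 at 80 h and 3716, 3948 and 4002 at 102 h. All 60, 80 and 102 h arrays of RPS20 lay below all 8 h and 30 h arrays, and the log2 change at 102 h against 8 h was -1.18 ± 0.17 (SE, limma adjusted p = 8.85e-05). RPS31 encodes a fusion with ubiquitin, which is split off after translation, and so also supplies ubiquitin. Its signals were 5657, 5436 and 5409 at 102 h against 9213, 8399.7 and 7559 at 8 h, a change of -0.60 ± 0.13 (adjusted p = 0.00232). RPS2, a protein of the mRNA entry side, had 5047, 4996 and 4771 at 102 h against 6455, 7132 and 6567 at 8 h, a change of -0.44 ± 0.11 (adjusted p = 0.00419). The groups of RPS31 and RPS2 did not overlap, but on the deposited scale the adjusted p was 0.0750 for RPS31 and 0.0593 for RPS2.

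RPS15 had 4534, 4384 and 4689 at 102 h against 6759, 6864 and 6809 at 8 h, a log2 change of -0.59 ± 0.13 (SE, limma adjusted p = 0.0025). The other 3 single genes did not pass at 102 h against 8 h. RPS3, which lies at the mRNA entry channel, had 6057, 5924 and 6128 at 102 h against 7899.9, 6985 and 6256 at 8 h (log2 -0.22 ± 0.14, adjusted p = 0.206). RPS12 had 4561, 4399.7 and 4976 against 5786, 5168 and 4963 (log2 -0.19 ± 0.10, adjusted p = 0.143). RPS13 had 5689.9, 5689.9 and 5689.9 against 6128, 6035 and 5975 (log2 -0.09 ± 0.11, adjusted p = 0.531). The equal values of RPS13 at 102 h are a rank it held on all 3 arrays before normalisation. Both RPS12 and RPS13 had fallen at 60 h against 30 h, by 0.56 ± 0.12 and 0.62 ± 0.13 on the log2 scale, and had risen at 80 h.

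Of the genes read through one paralogue only, RPS6B encodes a protein that is phosphorylated downstream of TOR. It had 4292, 3989 and 4100.0 at 60 h against 7228 and 8316 at 30 h, a log2 change of -0.91 ± 0.11 (SE, limma adjusted p = 9.90e-05). At 102 h it had 7034, 6112 and 6112 against 8839, 9213 and 9842 at 8 h, a change of -0.54 ± 0.10 (adjusted p = 0.000533), and neither comparison overlapped. RPS4B, a protein of the body, had 2587, 3549.8 and 3482 at 60 h against 6619 and 7827 at 30 h, a change of -1.18 ± 0.15 (adjusted p = 0.00015). RPS4B did not pass at 102 h against 8 h, at -0.24 ± 0.13 (adjusted p = 0.141), but passed at -0.36 without the 3 arrays of dim 5′ signal (adjusted p = 0.00208). The products of their paralogues are near identical, and all 3 genes of this kind were read by shared probe sets, and how far the partner transcript added to the signal was not tested.

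By place in the subunit, 21 members encode proteins of the head and 31 proteins of the body and platform, as placed from the known structure. Of the head members 13 passed as lower at 60 h against 30 h, with a median log2 change of -0.68, and of the body and platform members 26 did, with a median of -1.18. At 102 h against 8 h the counts were 12 of 21 head members with a median of -0.46, and 20 of 31 body and platform members with a median of -0.54. Of all probe sets 11.8% passed as lower in the former comparison and 28.6% in the latter. The difference between places was not tested. Size of change also went with brightness. Among the 26 members with the dimmer probe sets the median ratio of highest to lowest time mean was 3.20, and among the 26 brighter ones 2.05. Bright probe sets can be compressed at the top of the scanner range, and the part of this in the ratios was not tested.

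Paralogues were compared by the log2 signal of gene A minus that of gene B on the same array, so that only changes of this difference over time carry meaning and not its level. The F-test over the 5 times passed for 17 of 21 RPS pairs, or 81.0%, where 82.7% of all 52 A and B pairs in the annotation passed (21 RPS, 27 RPL and 4 other pairs). At 102 h against 8 h, 9 of 21 RPS pairs (42.9%) passed, where 50% of all pairs did. Both shares were near those of all pairs, so the counts alone show nothing particular to the small subunit. Gene A had the higher change in 5 of the 9 (RPS7, RPS9, RPS10, RPS25 and RPS26) and gene B in 4 (RPS1, RPS16, RPS19 and RPS29). The call of RPS10, whose change was 0.46 ± 0.11, was lost with unshared probe sets, at 0.21 ± 0.12 (SE, limma adjusted p = 0.149). Counted gene by gene, both paralogues passed as lower at 102 h than at 8 h in 9 pairs, one of them in 9 pairs and neither in 3 pairs (RPS14, RPS27 and RPS28). This count, and the pair counts under other settings below, were not set against all 52 pairs.

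**Figure D3:**
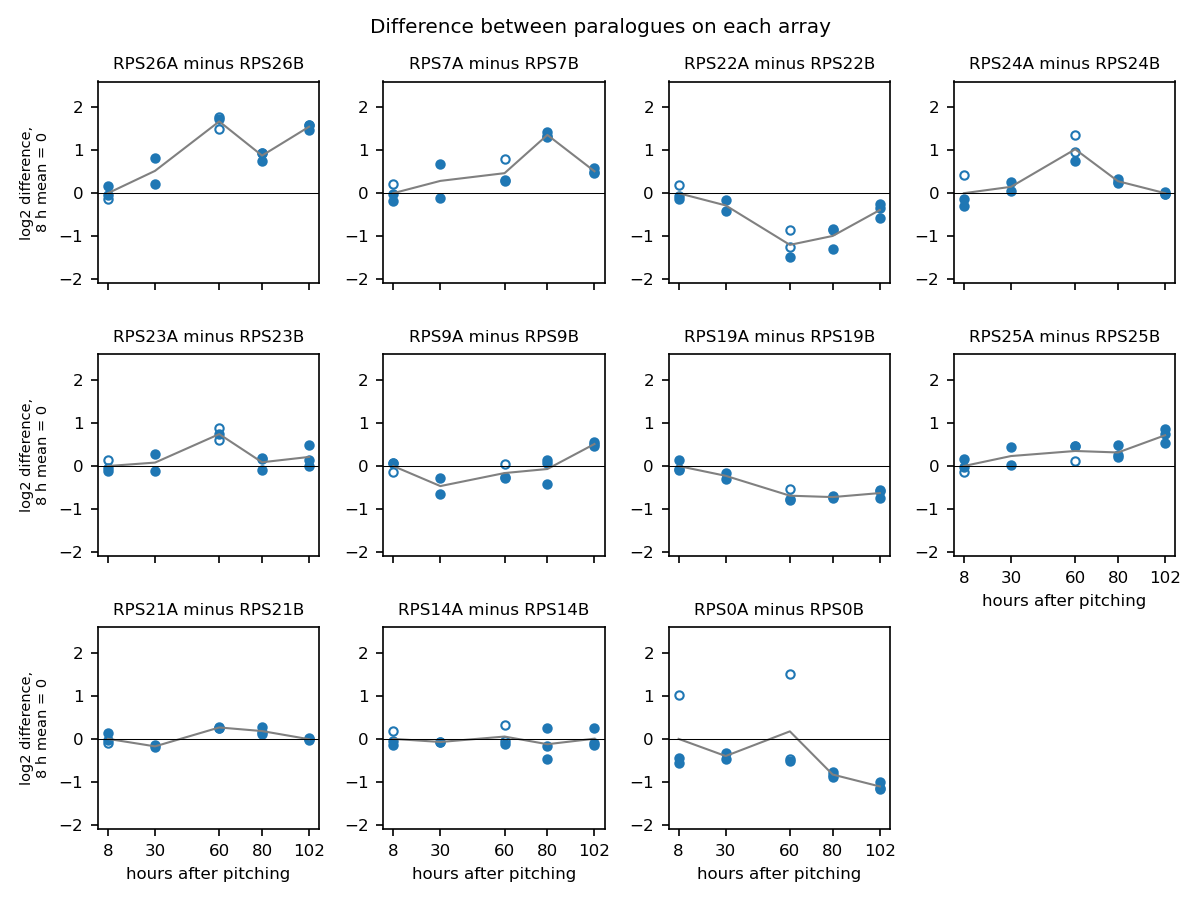
Log2 signal of gene A minus gene B on each array, shifted so that the 8 h mean is 0, against hours after pitching, for 11 pairs on one scale, with the line through the time means. Open circles are the 3 arrays of dim 5′ signal. RPS26 shows the widest span and RPS14 the narrowest, and in RPS0 an open circle stands far above the others at both 8 h and 60 h.

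RPS26 showed the widest span. The proteins of both genes line the mRNA exit channel and touch the bases before the start codon. RPS26A had 7034, 6418 and 5588 at 8 h, 4728 and 5711 at 30 h, 3989, 3234 and 2413 at 60 h, 3927, 3324 and 3409.5 at 80 h and 5409, 5208 and 5369 at 102 h. Gene A was higher again at 102 h than at 80 h. RPS26B, given above, fell farther and then rose by 0.97 ± 0.24 at 80 h against 60 h (SE, limma adjusted p = 0.0144). It stayed below all its 8 h and 30 h arrays. The difference A minus B was 3.49, 3.59 and 3.60 at 102 h against 1.88, 2.19 and 1.98 at 8 h, a change of 1.55 ± 0.15 (SE, 95% interval 1.22 to 1.87, limma adjusted p = 7.42e-06). It already differed at 60 h against 30 h, by 1.15 ± 0.17 (adjusted p = 0.000147). The difference then changed by -0.795 ± 0.15 at 80 h against 60 h (adjusted p = 0.00323) and by 0.67 ± 0.15 at 102 h against 80 h (adjusted p = 0.00682). RPS26A itself changed by -0.25 ± 0.16 at 102 h against 8 h (adjusted p = 0.218) with its shared probe set and by -0.42 ± 0.13 (adjusted p = 0.0187) with its unshared one. For the difference, no array of 102 h overlapped with those of 8 h, and over all alternatives the change at 102 h against 8 h kept between 1.34 and 1.75.

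RPS7 differed in timing. The A minus B difference was 1.38, 1.15 and 0.99 at 8 h, 1.85 and 1.07 at 30 h, 1.98, 1.47 and 1.47 at 60 h, 2.61, 2.51 and 2.48 at 80 h and 1.76, 1.64 and 1.66 at 102 h. It stood above all other arrays at 80 h, when RPS7A had risen and RPS7B had not. The change at 80 h against 60 h was 0.89 ± 0.19 (SE, limma adjusted p = 0.00555) and at 102 h against 80 h -0.85 ± 0.19 (adjusted p = 0.00708). At 102 h against 8 h it was 0.51 ± 0.19 (adjusted p = 0.0437), which did not pass on the deposited scale (adjusted p = 0.0512) or without any one of the 102 h arrays.

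RPS22 moved the other way, with gene A falling farther. RPS22A had 4292, 2990.0 and 3010.4 at 8 h, 1463 and 2683 at 30 h, 927, 486 and 403 at 60 h, 941, 823 and 943 at 80 h and 1134, 1252 and 1287 at 102 h. RPS22B, whose introns include one that holds a small nucleolar RNA, had 3041, 2660.5 and 2583 at 8 h, 1591 and 2428 at 30 h, 1370.1, 949 and 922 at 60 h, 1382, 1659.8 and 1363 at 80 h and 1369, 1224 and 1332 at 102 h. Both genes were lower at all later times than at 8 h. The A minus B difference changed by -0.92 ± 0.20 at 60 h against 30 h (SE, limma adjusted p = 0.00244) and by 0.60 ± 0.18 at 102 h against 80 h (adjusted p = 0.0274), so that at 102 h against 8 h it was -0.39 ± 0.18 (95% interval -0.79 to 0.01, adjusted p = 0.0885). Without the 3 arrays of dim 5′ signal these changes were -1.20, 0.61 and -0.28 in the same order, where only replicate 3 was left at 60 h. RPS22A lies next to RPS14B on chromosome X in R64. RPS14B was at 566, 547 and 432 at 102 h against 322, 597 and 605 at 8 h, while RPS22A had fallen. The 322 came from 8 h replicate 1, an array of dim 5′ signal, and every 102 h value of RPS14B lay below the other 8 h arrays.

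In RPS24, gene B fell farther than gene A at 60 h. RPS24A had 4604, 4169 and 3891 at 8 h, 3227 and 4036 at 30 h, 2676, 2618 and 2084 at 60 h, 3626, 3864 and 3919 at 80 h and 3186, 3202 and 3258 at 102 h. RPS24B had 3957, 5288 and 5485 at 8 h, 3124 and 4519 at 30 h, 1199, 1563 and 1426 at 60 h, 3489, 3779.5 and 3582 at 80 h and 3721, 3721 and 3685 at 102 h. The difference A minus B changed by 0.87 ± 0.20 at 60 h against 30 h (SE, limma adjusted p = 0.00348) and by -0.74 ± 0.18 at 80 h against 60 h (adjusted p = 0.00955). At 102 h against 8 h the change was 0.00 ± 0.18 with a 95% interval of -0.40 to 0.40. The difference was 0.22, -0.34 and -0.50 at 8 h and 1.16, 0.74 and 0.55 at 60 h, so it was highest on replicate 1 of both times, arrays of dim 5′ signal. Without the 3 such arrays the changes were 0.61 ± 0.13 at 60 h against 30 h (adjusted p = 0.00378), -0.48 ± 0.12 at 80 h against 60 h (adjusted p = 0.0206) and 0.21 ± 0.10 at 102 h against 8 h (adjusted p = 0.0876), with 1 array left at 60 h.

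RPS9, whose proteins lie beside the mRNA entry channel, had an A minus B difference of -2.04, -1.97 and -1.997 at 102 h against -2.65, -2.43 and -2.45 at 8 h, a change of 0.51 ± 0.16 (SE, limma adjusted p = 0.0172). RPS25, a head protein used by some viral internal ribosome entry sites, had 1.90, 1.57 and 1.77 at 102 h against 0.89, 1.02 and 1.19 at 8 h, a change of 0.72 ± 0.15 (adjusted p = 0.00183). In both pairs the arrays of 102 h lay above those of 8 h. RPS19 went the opposite way, with -1.73, -1.75 and -1.90 at 102 h against -1.23, -1.01 and -1.25 at 8 h, a change of -0.63 ± 0.10 (adjusted p = 0.000369). Its gene A fell to 39.9% of the 8 h mean at 102 h and gene B to 61.4%. The RPS9 call was lost on the deposited scale (adjusted p = 0.0836).

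The narrowest span was that of RPS14, at 0.18 on the log2 scale. RPS14A had 4638, 7390.4 and 7034 at 8 h, 4679 and 6418 at 30 h, 1886, 2555 and 2614 at 60 h, 4976, 5047 and 4913 at 80 h and 6759, 6324 and 6537 at 102 h. RPS14B had 322, 597 and 605 at 8 h, 383 and 533 at 30 h, 119, 207 and 221 at 60 h, 537, 444 and 323 at 80 h and 566, 547 and 432 at 102 h. Both genes were lower at 60 h than at 30 h, and at 102 h both lay within their 8 h range only through 8 h replicate 1, an array of dim 5′ signal. Every 102 h value was below the other 8 h arrays, and without the 3 arrays of dim 5′ signal the log2 changes at 102 h against 8 h were -0.14 for RPS14A and -0.23 for RPS14B (limma adjusted p = 0.283 and 0.315). The change of the difference at 102 h against 8 h was 0.00 ± 0.18 (SE) with a 95% interval of -0.39 to 0.40, so a difference inside that interval could not be told from 0. RPS21, whose proteins lie on the back of the body, had a span of 0.44. Its difference changed by 0.44 ± 0.09 at 60 h against 30 h (limma adjusted p = 0.00193) and by -0.01 ± 0.08 at 102 h against 8 h (95% interval -0.19 to 0.17).

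RPS0 had a wide span without passing the F-test, and the size of its difference depended on the arrays of dim 5′ signal. The A minus B difference of RPS0 was -1.26, -1.09 and -1.22 at 102 h against 0.93, -0.53 and -0.64 at 8 h, where the first 8 h value is the array of dim 5′ signal. With all arrays the change was -1.11 ± 0.49 (SE, limma adjusted p = 0.0789). Without those 3 arrays it was -0.62 ± 0.10 (adjusted p = 0.000308), and the F-test passed. Without these arrays 16 pairs passed the F-test, 15 of them in common with the 17.

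The probe set chosen for a gene decided some paralogue comparisons. The manufacturer marks some probe sets as shared between transcripts, and 14 members, in 9 of the 21 pairs and the 3 genes with one paralogue, were read by such a set. RPS23A and RPS23B encode a protein at the decoding centre. The shared probe set of RPS23A gave 6759, 5588 and 5485 at 60 h against 6173 and 6759 at 30 h. Its unshared probe set gave 442, 481 and 541 at 60 h against 1345 and 2361 at 30 h, a log2 change of -1.87 ± 0.21 (SE, limma adjusted p = 6.97e-05). The arrays of 60 h and 30 h overlapped with the shared set and were widely separated with the unshared set. The A minus B change of RPS23 at 60 h against 30 h was 0.66 ± 0.17 with the shared set (adjusted p = 0.0065) and -1.08 ± 0.20 with the unshared set (adjusted p = 0.00054), so the direction reversed.

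At 102 h against 8 h, 3 pairs had the opposite sign with unshared probe sets, RPS23 among them. For RPS23 the change was 0.21 ± 0.15 with the shared set of RPS23A (SE, limma adjusted p = 0.284) and -0.85 ± 0.18 with the unshared one (adjusted p = 0.00175). With unshared sets throughout, 15 pairs passed the F-test, 14 of them in common with the 17, and 12 passed at 102 h against 8 h. These counts were not set against all A and B pairs. RPS26 passed with unshared sets too, at 1.37 ± 0.16 (adjusted p = 3.27e-05). The ratio of highest to lowest time mean also depended on the set, being 5.06 for the unshared set of RPS23A and 1.42 for its shared set. In 16 of 21 pairs, or 18 with unshared sets, the dimmer probe set of the pair had the larger ratio.

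**Figure D4:**
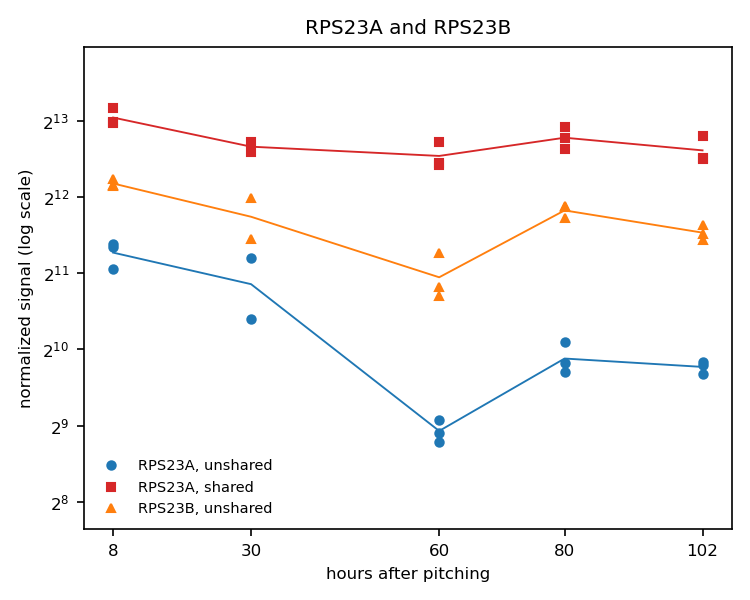
Normalized signal on a log scale against hours after pitching for the probe sets of RPS23A and RPS23B, each point an array and each line the time means. The shared probe set of RPS23A is nearly flat, whereas its unshared probe set drops at 60 h more than that of RPS23B.

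Genes that regulate ribosomal protein genes passed in either direction about as often as all probe sets late in the fermentation. Among 12 regulators, 3 (25%) passed as higher at 102 h than at 8 h and 4 (33.3%) as lower in limma, where 21.6% of all probe sets passed as higher and 28.6% as lower. Their median log2 change was 0.21, against -0.09 over all probe sets. CRF1, a corepressor that competes with Ifh1, had the largest rise at 1.46 ± 0.18 (SE, adjusted p = 3.91e-05), and IFH1, an activator, changed by 1.12 ± 0.18 (adjusted p = 0.000282). TOR1, a kinase that senses nutrients, changed by -1.11 ± 0.26 (adjusted p = 0.00318) and SFP1 by 0.87 ± 0.17 (adjusted p = 0.000931). At 60 h against 30 h, HMO1, which binds many ribosomal protein promoters, changed by -0.90 ± 0.23 (adjusted p = 0.0115) and YAK1 by -0.55 ± 0.13 (adjusted p = 0.00821), both downward with the members, while KOG1 changed by 0.47 ± 0.15 (adjusted p = 0.031).

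Of 12 chaperones and late assembly factors, 9 (75%) passed as higher at 102 h than at 8 h and 1 (8.33%) as lower, where 21.6% of all probe sets passed as higher and 28.6% as lower. Their median log2 change was 0.92, against -0.09 over all probe sets and -0.50 for the RPS members. TSR2, the chaperone that delivers Rps26 to the subunit, changed by 1.54 ± 0.19 (SE, limma adjusted p = 3.01e-05). ENP1 changed by 1.53 ± 0.13 (adjusted p = 1.81e-06), DIM1, which methylates the small-subunit rRNA, by 1.29 ± 0.17 (adjusted p = 5.64e-05), and BUD23, another methyltransferase of that rRNA, by 1.23 ± 0.27 (adjusted p = 0.00208). The 1 that passed as lower was TSR3, at -0.54 ± 0.19 (adjusted p = 0.0323).

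ASC1 encodes the RACK1 protein bound to the head of the subunit, and like most members was lower at 60 h. It changed by -1.03 ± 0.19 at 60 h against 30 h (SE, limma adjusted p = 0.00176) and by 0.73 ± 0.17 at 80 h against 60 h (adjusted p = 0.00971), and at 102 h against 8 h by 0.09 ± 0.17 (adjusted p = 0.695). STM1, which binds ribosomes that are not translating, changed by -1.33 ± 0.22 at 60 h against 30 h (adjusted p = 0.000888) and by -1.06 ± 0.20 at 102 h against 8 h (adjusted p = 0.000687).

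The scaling of the arrays shifted the members as a group by amounts that matter for the smaller steps. The log2 median of the 52 members was lowest on the 3 arrays of 60 h under quantile normalisation and on the deposited scale. With arrays centred on the S. cerevisiae median, 80 h replicate 3 lay below 60 h replicate 1, and the other 60 h arrays were lowest. The median change at 60 h against 30 h was -0.83 with quantile normalisation, -0.86 as deposited and -0.99 with centring, and at 102 h against 8 h it was -0.50, -0.45 and -0.34 in the same order. At 30 h against 8 h it was -0.36, -0.21 and 0.00, and at 102 h against 80 h 0.14, 0.02 and 0.36. At 80 h against 60 h it was 0.50, 0.59 and 0.28. The fall at 60 h thus changed least in proportion, and the steps at 30 h and 102 h most.

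**Figure D5:**
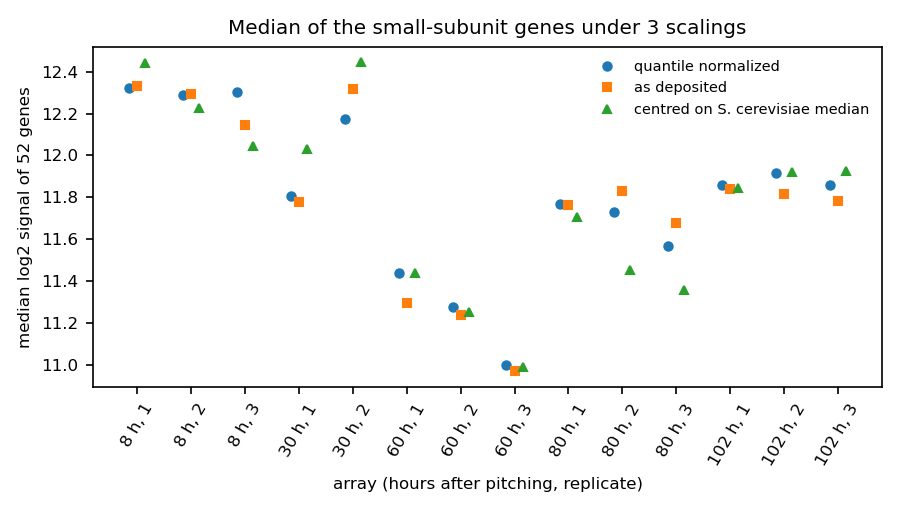
Median log2 signal of the 52 small-subunit genes on each of the 14 arrays, under quantile normalisation, the deposited scale and centring on the S. cerevisiae median. The 60 h arrays are lowest under the first and second, 80 h replicate 3 lies below 60 h replicate 1 under the last, and the 2 arrays of 30 h stand apart under each.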

How the data were processed

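Total RNA of lager yeast CB11 was measured on 14 single-colour arrays at 5 times, grouped by the time in the labels. The authors deposited one table of all arrays, which gives a linear signal intensity for each probe set. GCOS 5.0 is named in the submitters' processing notes, and no source used here gives the scaling target. The number of arrays limits the precision.

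Intensities were quantile normalized, floored at 5.65 and taken to log2. Of 10928 probe sets 213 were controls, and the annotation gave 7244 to exactly 1 gene, 1 to several and the rest to none. Names were updated through the R64 gene table, used for names and neighbours only. The 5336 S. cerevisiae probe sets with at least 2 arrays of some time above a background of 22.5 (the 95th percentile of the dimmer part of each array) were tested, 109 of them shared sets. Limma 3.58.1 in R 4.3.3 fitted 5 times, with an intensity trend, a moderated F-test, 5 comparisons and Benjamini-Hochberg adjustment over all 5336. Paralogue differences were fitted for all 52 A and B pairs and adjusted over these. The threshold was an adjusted p under 0.05.

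Members, gene lists and tests were chosen with earlier results of these data known. Named genes are up to 6 largest rises and falls per comparison past the test (the 2 largest changes where none passed), single genes, the 8 pairs of widest span past the F-test, the 3 of narrowest span and up to 4 genes of other lists. RPS27B, RPS14A, RPS29A, RPS30A, RPS6B, RPS4B and the pair RPS0 were also described, chosen after their values were seen. A few members are counted but not reported here by name. Same-numbered replicates were checked for deviating together. Their median correlation was 0.009 over 26 array pairs, with 4 above 0.1 and a highest of 0.741. Arrays of different numbers had a median of 0.003 over 52 pairs, with 6 above 0.1 and a highest of 0.618. The numbers were therefore not treated as pairing samples. Alternatives changed the scaling, filter, floor, variance trend, arrays, threshold and probe sets. The fit was tested on simulated data.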

Additional observations from a re-analysis of the deposited data

How the results depend on the processing

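Of 6745 member changes recomputed under the alternatives, 257 lost and 233 gained their call. The sign differed in 149, none of them past the test in the values reported and 3 past it under the alternative (RPS29A and RPS29B at 80 h against 60 h, without the arrays of dim 5′ signal or, for RPS29A, with the covariate below). Without the 3 arrays of dim 5′ signal, members lower numbered 10 at 30 h against 8 h, members higher 45 at 80 h against 60 h and 17 at 102 h against 80 h, and 3 were lower there. Fitting the 5′ to 3′ ratio of control transcripts as a covariate made these counts 6, 44, 17 and 2. With the covariate 198, 736, 921 and 1106 of all probe sets passed in the same order, against 7, 503, 405 and 446 in the values reported. Without the 3 arrays, which left only replicate 3 at 60 h, more of all probe sets also passed in each of these directions. The gains in members thus came with gains over all probe sets. With arrays centred on the S. cerevisiae median, 13 were higher at 80 h against 60 h and 18 lower at 102 h against 8 h. Over all probe sets these counts were 465 and 1386. On the deposited scale, 5 were higher and 2 lower at 102 h against 80 h, where 122 of all probe sets were higher and 1423 lower. With only the arrays of the times compared, 12 were lower at 60 h against 30 h and 16 higher at 80 h against 60 h. At 102 h against 80 h, 25 were then higher and 6 lower. Over all probe sets these counts were 117, 276, 1201 and 1387. At a threshold of 0.01, 13 were higher at 80 h against 60 h and 5 at 102 h against 80 h, where 197 and 142 of all probe sets were. Leaving out 1 array at a time gave 0 to 11 lower at 30 h against 8 h, 21 to 47 lower at 60 h against 30 h, 13 to 38 higher at 80 h against 60 h, and 5 to 11 higher and 0 to 1 lower at 102 h against 80 h. The lowest count at 60 h against 30 h and the highest at 30 h against 8 h came without 30 h replicate 2, and the highest at 80 h against 60 h without 60 h replicate 1. The cause of these shifts was not tested. With the replicate block 49 members passed the F-test, 33 were lower at 102 h against 8 h and 26 higher at 80 h against 60 h, and the block moved no other count. The F-test of members (43 to 52) and both paralogue counts (13 to 18 over the 5 times, 7 to 12 at 102 h against 8 h) stayed within 1.5 times their values. Removing the filter or setting a floor of 1 changed none of these counts. Over all probe sets, the percentage of calls that were higher was 86.5 on the deposited scale at 80 h against 60 h (46.4 after quantile normalisation) and 7.9 at 102 h against 80 h (47.6, and 59.2 with centring). It was 17.1 as deposited and 64.3 with centring at 30 h against 8 h (46.2), and 47 with centring at 60 h against 30 h (58). A block on chip lot or scan date was not run, because the fields that would give them held no values. Signals were far above background for all members, so dim signal limits none of them, but bright probe sets may understate changes.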
